A study of Rattus norvegicus with 2 samples.

Results

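Lysosomal cathepsins, the protease legumain and the inhibitor cystatin C were compared between 2 arrays of AT6.1 cells, a metastatic rat prostate cancer line. The 10 genes (Ctsb, Ctsc, Ctsd, Ctsh, Ctsk, Ctsl, Ctss, Ctsz, Lgmn and Cst3) were chosen by name with their measured values in view, and all 13 probe sets annotated to a single one of them were taken, out of 20826 probe sets of 14217 genes. One array came from clone # 7, stably transfected with the pcDNA3 plasmid with Ndrg-1 (N-myc downstream regulated gene-1) inserted, and the other from clone # 9, transfected with pcDNA3 without an insert. Both were cultured in RPMI with fetal calf serum and kept under 0.3 mg/mL of the selection drug G418. pcDNA3 drives its insert from a viral promoter, and neither its species nor its extent is stated in the labels. Each group is 1 clone, 1 culture and 1 array, so no p-value is given, and the effects of insert, clone, culture and array cannot be told apart. In RNA from a whole culture, fewer cells that express a gene and less RNA per cell cannot be told apart either.

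Cathepsins are proteases of the acidic lysosome. Most belong to the papain-like cysteine proteases, here cathepsins B, C, H, K, L, S and Z, while cathepsin D is an aspartic protease. They are made as inactive precursors, are tagged with mannose 6-phosphate for delivery to lysosomes, and are activated there by other proteases, legumain among them. Cystatin C is a secreted inhibitor of the cysteine cathepsins. In prostate and other cancers, cathepsins that leave the cell are studied for their cleavage of matrix proteins.

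The values are probe set signals on a linear scale. A floor was set at the median of all signals, 31.0, and lower signals were raised to it before ratios were taken. A ratio is that of the array labelled Ndrg-1 over the vector array, on the log2 scale, after a rescaling of the vector array by 0.0048 (log2). A gene is read from the probe set whose mean log2 signal is highest. With 1 array per group, the one spread that can be measured is that between probe sets of the same gene, with an SD of 0.23 in the log2 ratio (5336 probe sets of 2296 genes), which leaves out the variation between clones, cultures and arrays. The probe sets annotated to rat Ndrg1 were not 2-fold different. Whether they read the insert is not known, since its species and extent are not stated. The sample title calls the cells over-expressing Ndrg-1. The brighter Ndrg1 probe set read 1353 in the array labelled Ndrg-1 and 1062 in the vector array (log2 ratio 0.34), and the dimmer read 154 and 181 (-0.24).

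Promoter sequence is shown for 3 of the genes: Ctsc, the highest in ratio, Ctsh, the lowest, and Ctsd, the only one of the 9 genes searched with the letters CACGTG, the core of the E-box read by lysosomal gene regulators of the MiT/TFE family. The sequences are RefSeq's, on the rat build GRCr8, 5′ to 3′ on the strand of the gene. Capitals mark matches to CACGTG and TCACGTG (which overlap), the GC box GGGCGG and the CCAAT box CCAAT, each searched on both strands. Of the Ctsc window only the 61 bases before the annotated start of the gene are printed.
Ctsc (chr1:151440799-151440859, plus strand): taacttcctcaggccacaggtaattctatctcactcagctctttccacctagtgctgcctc
Ctsh (chr8:99488506-99488755, plus strand): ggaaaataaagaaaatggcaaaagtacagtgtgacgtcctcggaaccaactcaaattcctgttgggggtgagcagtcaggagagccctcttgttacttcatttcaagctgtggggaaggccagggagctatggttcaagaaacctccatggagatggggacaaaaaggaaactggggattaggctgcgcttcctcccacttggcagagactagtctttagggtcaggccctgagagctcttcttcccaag
Ctsd (chr1:206968822-206969071, minus strand): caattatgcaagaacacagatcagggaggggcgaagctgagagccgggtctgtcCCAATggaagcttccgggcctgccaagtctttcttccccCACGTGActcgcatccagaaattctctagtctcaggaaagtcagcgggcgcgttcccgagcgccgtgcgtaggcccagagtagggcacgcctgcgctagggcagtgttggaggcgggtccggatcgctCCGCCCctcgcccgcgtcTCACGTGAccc

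The table of promoters held 9 of the 10 genes, and the 250 bases before each listed start were searched. CACGTG occurred in 1 of the 9 (Ctsd, at 2 places) and in 5.59% of the 33469 promoters in the table. GGGCGG occurred in 6 of the 9 (Cst3, Ctsc, Ctsd, Ctsl, Ctsz and Lgmn) against 30.5% of all, and CCAAT in 4 (Ctsd, Ctsk, Ctsl and Lgmn) against 34.0%. TATAAA occurred in 1 (Ctss) against 12.9%. The windows of the 6 genes with GGGCGG were 57.6% to 66.8% G or C, against a median of 51.2% over all promoters. The Ctsh window held none of these letters. The GGGCGG of the Ctsc window lay in the part after the annotated gene start that is not printed. That of the Cst3 window also lay after the annotated start of its gene. Such matches describe these windows only and are not evidence of binding.

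Among the 10 genes, 1 was at least 2-fold higher in the array labelled Ndrg-1 (Ctsc), 1 was at least 2-fold lower (Ctsh), 5 differed by less than 2-fold (Ctsb, Ctsd, Ctsl, Lgmn and Cst3), and 3 lay under the floor in both arrays (Ctsk, Ctss and Ctsz). Of the 9182 genes above the floor in at least 1 array, 1.62% were at least 2-fold higher, 1.50% at least 2-fold lower and 3.13% either. Nothing is read from the count of members against these shares, since the members were picked with these ratios known. The 7 measured members had a median log2 ratio of -0.16, with 6 below 0, against a median of 0.0029 and 49.6% below 0 over all measured genes. For the same reason nothing is read from this difference.

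**Figure D1:**
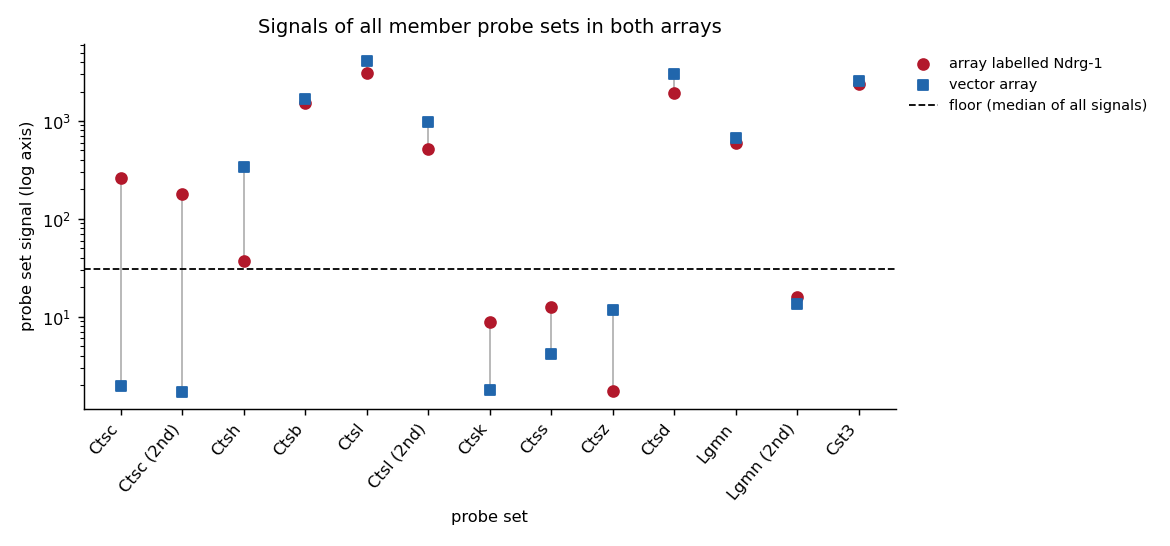
Signal of each of the 13 probe sets of the 10 genes in the array labelled Ndrg-1 (circles) and the vector array (squares), on a log axis, with the floor of 31.0 dashed and a second probe set of a gene marked 2nd. The Ctsc pair is split across the floor, Ctsh reads 37.3 against 343, and Ctsk, Ctss and Ctsz lie under the floor in both arrays.

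Ctsc was above the floor in the array labelled Ndrg-1 alone. It encodes cathepsin C, or dipeptidyl peptidase I, which removes dipeptides from the amino end of proteins and in immune cells activates granule serine proteases. Its brighter probe set read 261 in the array labelled Ndrg-1 and 1.98 in the vector array. The other probe set read 179 and 1.71. Both probe sets thus gave the same picture, with a vector signal far below the floor, where signals have no usable order. Against the floor, the gene was at least 8.40-fold higher (log2 ratio at least 3.07), and the second probe set gave a log2 ratio of at least 2.53. Of all measured genes, 8 (0.0871%) reached 8-fold in either direction, Ctsc and Ctsh among them.

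Ctsh went the other way. It encodes cathepsin H, a cysteine protease that acts mainly as an aminopeptidase and is known for processing surfactant protein in the lung. Its single probe set read 37.3 in the array labelled Ndrg-1 and 343 in the vector array, 9.22-fold lower (log2 ratio -3.20). The lower of these signals lay just above the floor. No second probe set was available to set beside it. Among the 8552 genes above the floor in both arrays it had the third lowest ratio. With 2 arrays a gene's pattern is a single ratio, and by the difference in log2 ratio the nearest genes were Flnc, an actin cross-linker, below it (-3.45, a difference of 0.24) and Penk, the enkephalin precursor, above it (-2.32, a difference of 0.88).

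Cathepsins B and L, the broadly expressed endopeptidases of the lysosome, were above the floor in both arrays and differed by less than 2-fold. Ctsb read 1528 in the array labelled Ndrg-1 and 1666 in the vector array (log2 ratio -0.13), and 65.5% of measured genes had a ratio at least as far from 0. It turned to 0.41 when scaled to the hybridisation spikes. Ctsl read 3084 and 4144 on its brighter probe set (-0.43) and 514 and 970 on the other (-0.92). The Ctsl probe sets were both lower in the array labelled Ndrg-1, and their ratios lay 0.49 apart, where the SD of such a difference between probe sets of a gene is 0.33. The brighter ratio turned to 0.11 when the arrays were scaled to the hybridisation spikes, and it shrank to -0.10 under quantile normalization.

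Ctsd had the largest ratio in size among the members under 2-fold when each gene was read from its brightest probe set. By the median over probe sets Ctsl was slightly further from 0 (-0.68). Ctsd encodes cathepsin D, an aspartic protease that many tumour cells secrete as a precursor. Its probe set read 1940 in the array labelled Ndrg-1 and 3044 in the vector array, 1.57-fold lower (log2 ratio -0.65, or -2.83 in units of the SD between probe sets). A ratio at least this far from 0 was found for 8.48% of measured genes. It stayed below 0 in all 10 alternative settings, between -0.87 and -0.11. Ctsb, Ctsl, Ctsd and Cst3 all lie in the top decile by mean signal of the probe sets that exceeded the floor in both, and the median log2 ratio of that decile was -0.13, and the part of this shift in their ratios was not tested. With the trend of ratio on signal removed, Ctsd was at -0.49, Ctsl at -0.22 and Ctsb at -0.02.

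Legumain and cystatin C hardly differed. Lgmn, the asparagine-specific protease that helps mature several cathepsins, read 598 in the array labelled Ndrg-1 and 667 in the vector array (log2 ratio -0.16). Its second probe set, at 16.1 and 13.5, lay under the floor in both and gave no ratio. Cst3, the cystatin C gene, read 2397 and 2562 (-0.10), and 72.9% of measured genes had a ratio at least as far from 0. The sign of the Cst3 ratio depended on the processing. It was at 0.09 under quantile normalization, 0.06 with the trend removed and 0.44 when scaled to the hybridisation spikes. Lgmn was below 0 in 9 of 10 alternatives and at 0.38 with the hybridisation spike scaling. That scaling raised the ratios of genes above the floor in both arrays by the same amount.

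Cathepsins K, S and Z could not be compared. Ctsk, the collagen-degrading cathepsin of osteoclasts, read 8.89 in the array labelled Ndrg-1 and 1.78 in the vector array. Ctss, which trims the invariant chain of MHC class II in antigen-presenting cells, read 12.6 and 4.19. Ctsz, the carboxypeptidase cathepsin Z, read 1.74 and 11.8. All of these signals lay under the floor, and no fold is given for them. With a lower floor, at the 25th percentile of signals, the log2 ratios were at least 0.21 for Ctsk, at least 0.72 for Ctss and -0.63 or lower for Ctsz. These are bounds, since 1 array lay at that floor for each gene.

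**Figure D2:**
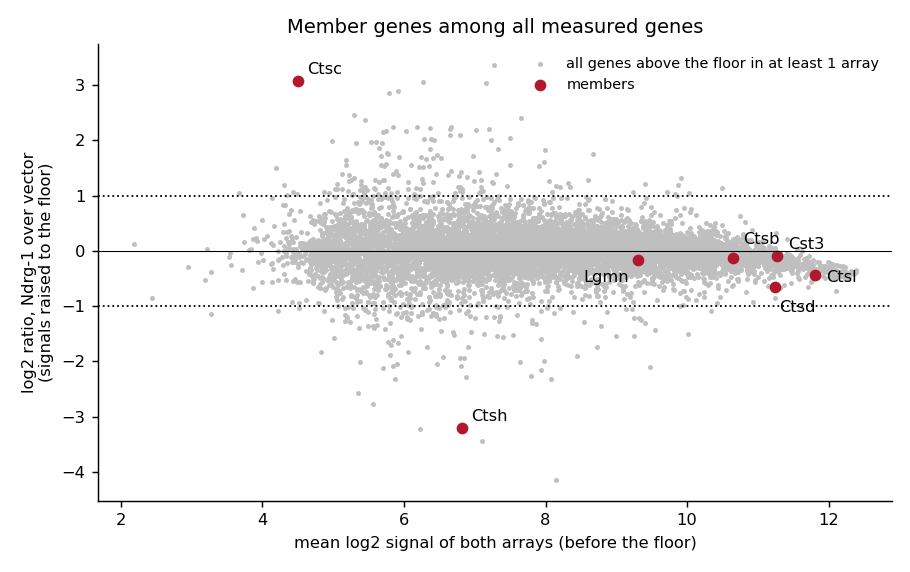
Log2 ratio of the array labelled Ndrg-1 over the vector array against mean log2 signal for the genes above the floor in at least 1 array (grey) and the 7 measured members (red), with 2-fold dotted. Ctsc (at least 3.07) and Ctsh (-3.20) lie at the edges of the cloud, and the other 5 members lie between -0.65 and -0.10 toward high signal.

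The split between higher and lower genes depends on how the arrays are scaled. All 18 hybridisation spike probe sets were lower in the array labelled Ndrg-1 (median log2 ratio -0.54), and 23 of 24 poly-A spike probe sets were higher (0.22). As reported, 149 genes were at least 2-fold higher and 138 lower, against 732 and 43 when scaled to the hybridisation spikes and 101 and 240 when scaled to the poly-A spikes. Every ratio here is therefore relative to the median gene. Ctsh was at least 2-fold lower in all 10 alternatives, between -3.42 and -1.003, and Ctsc at least 2-fold higher in 9 of 10. The exception for Ctsc was the floor at the 75th percentile, which leaves a log2 ratio of at least 0.60. At that floor, 172, the Ctsh value of -1.003 is also a bound and barely reaches 2-fold. Its signal in the array labelled Ndrg-1 lay under that floor.

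**Figure D3:**
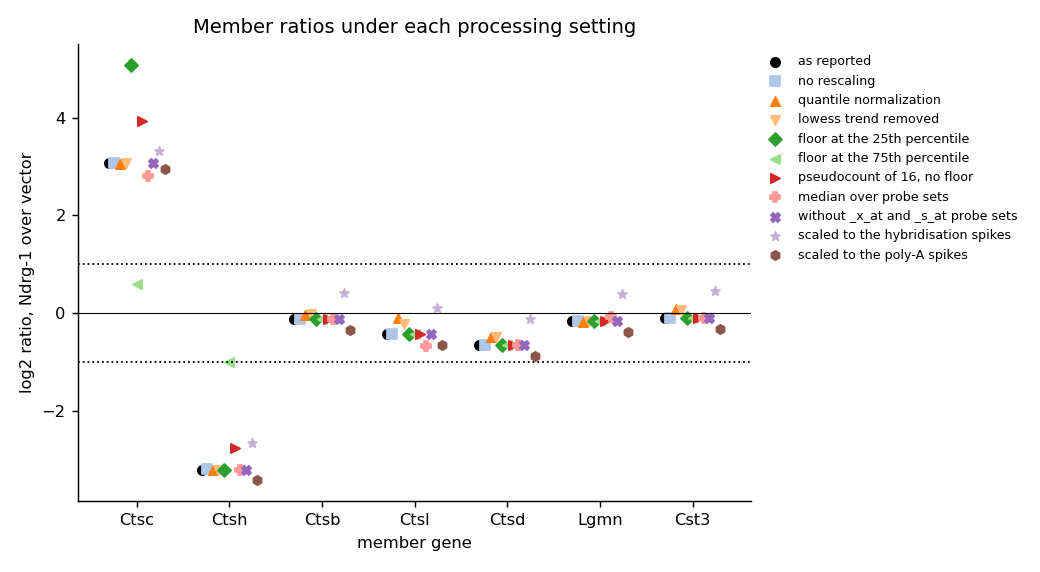
Log2 ratio of each measured member (array labelled Ndrg-1 over vector array) as reported and in 10 alternative settings, 1 symbol per setting, with 2-fold dotted. Ctsh stays between -3.42 and -1.003 (a bound, with the floor at the 75th percentile) and Ctsc above 0. Ctsb, Ctsl and Lgmn lie above 0 under the hybridisation spike scaling alone, and Cst3 also under quantile normalization and with the lowess trend removed. The hybridisation spike scaling raises the ratios of genes above the floor in both arrays alike.

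Other cathepsins and their inhibitors were read next. Of 11 other cathepsins and relatives on the array, 4 were measured, 1 of them at least 2-fold lower and 0 at least 2-fold higher (median log2 ratio -0.16). The lower gene was Tinagl1, a secreted matrix protein related to cathepsin B, at 300 in the array labelled Ndrg-1 and 866 in the vector array (2.89-fold lower). Its log2 ratio of -1.53 became -0.99, under 2-fold, when scaled to the hybridisation spikes. Ctso, a little-studied cysteine cathepsin, read 178 and 101 (0.81), while Ctsf (-0.17) and the carboxypeptidase Ctsa (-0.16) were close to 0. Among other cystatins and cysteine protease inhibitors, 4 of 10 on the array were measured, with 1 at least 2-fold higher and 0 lower. That gene was Cst7, which encodes cystatin F, an inhibitor made by immune cells that can act on cathepsin C. It read 1301 in the array labelled Ndrg-1 and 634 in the vector array, 2.04-fold higher, and dropped under 2-fold (0.82) when scaled to the poly-A spikes. Cstb, the intracellular cystatin B, was at -0.19.

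Relative to the median gene, other lysosomal genes differed little. Of 7 other lysosomal peptidases and thioesterases measured, 5 were below 0 and 0 reached 2-fold (median -0.19), from Prcp, at the floor in the array labelled Ndrg-1, at -0.51 or lower, to the dipeptidyl peptidase Dpp7 at 0.58. The second Prcp probe set read 25.6 in the array labelled Ndrg-1 and 26.4 in the vector array, under the floor in both, and gave no ratio. Of 23 lysosomal glycosidases, sulfatases and lipid hydrolases, 15 were below 0 and 0 reached 2-fold (median -0.13), from the sialidase Neu1 at -0.82 (second probe set -0.57) to the iduronidase Idua at 0.27. Of 17 lysosomal membrane proteins, 10 were above 0 and 1 reached 2-fold (median 0.07). This was Cln3, mutated in a juvenile neuronal storage disease, at 66.8 in the array labelled Ndrg-1 and 25.7 in the vector array, at least 2.15-fold higher. Its other probe sets gave at least 0.58 and at least 0.41, and the value was under 2-fold by the median over probe sets (0.58), with the pseudocount (0.99) and when scaled to the poly-A spikes (0.998).

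Acidification, sorting and transcription genes were likewise mostly under 2-fold. The 17 subunits of the V-ATPase, the proton pump of the lysosome, had a median of -0.05 and 0 at 2-fold, from Atp6v1h at -0.61 to Atp6ap2 at 0.55. The second probe set of Atp6ap2 read 232 and 103 (1.17). The 15 genes of mannose 6-phosphate and other sorting had a median of 0.05 and 0 at 2-fold, from Nagpa at -0.44 to Gnptab at 0.50, which encode enzymes that finish and start the mannose 6-phosphate tag. Among 11 MiT/TFE and other lysosomal gene regulators, 8 were below 0 and 1 reached 2-fold (median -0.10). Tfec, a member of the MiT/TFE family, read 63.0 in the array labelled Ndrg-1 and 8.001 in the vector array, at least 2.03-fold higher, with its second probe set at 0.50 or more. Its bound was under 2-fold when scaled to the poly-A spikes (0.91) and by the median over probe sets (0.76). Its relatives were lower relative to the median gene, with Mitf at -0.64, Tfe3 at -0.38 and Tfeb at -0.37. The median of this list of regulators turned to 0.44 when scaled to the hybridisation spikes.

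**Figure D4:**
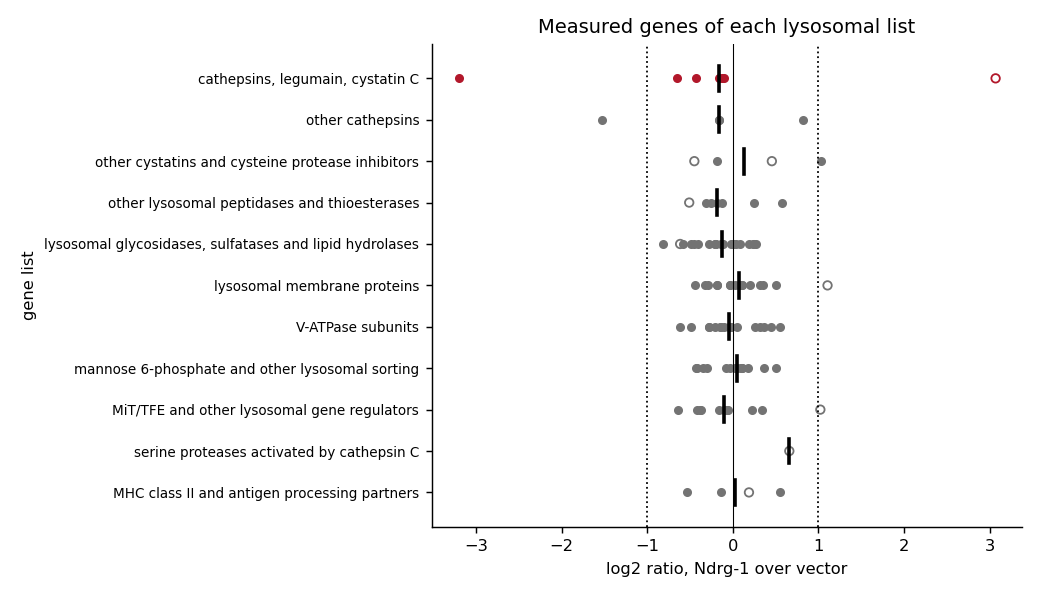
Log2 ratios (array labelled Ndrg-1 over vector array) of the measured genes of the 10 genes studied (red) and of 10 lysosomal or partner gene lists (grey), with filled circles for genes above the floor in both arrays, open circles for bounds, black bars for list medians and 2-fold dotted. List medians with more than 1 measured gene lie between -0.19 and 0.13, and Ctsc and Ctsh lie outside the range of the other lists.

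Partner genes of immune cells were mostly under the floor. Of 7 serine proteases on the array that cathepsin C can activate, 1 was measured, the mast cell tryptase Tpsb2. It read 49.0 in the array labelled Ndrg-1 and 8.69 in the vector array (log2 ratio at least 0.66). The ratio passed 2-fold with the floor at the 25th percentile (2.49) and with the pseudocount (1.40). Gzma, Gzmb and Cma1 were among the 6 under the floor in both. Of 9 MHC class II and antigen processing genes, 4 were measured and 0 reached 2-fold, from RT1-DMa at -0.54 to the thiol reductase Ifi30 at 0.55. Macrophage and leukocyte markers had 4 of 16 measured, 0 at 2-fold, with a summed signal of 560 in the array labelled Ndrg-1 and 574 in the vector array. The leukocyte marker Ptprc read 2.72 and 3.25, and Itgam, Adgre1 and Tyrobp were also under the floor in both arrays, whereas Cd68, a lysosomal membrane protein as well as a macrophage marker, read 206 and 114 (0.85). The other measured markers were the lipopolysaccharide co-receptor Cd14, at 210 and 308 (-0.56), the receptor Csf1r, at the floor in the array labelled Ndrg-1, at -0.11 or lower, and the signalling adaptor Fcer1g at 0.41. All 6 genes in the mast cell marker list, which leaves out Tpsb2, lay under the floor in both arrays, with summed signals of 71.2 and 57.6. Of 5 osteoclast markers 1 was measured (Nfatc1 at -0.10), with sums of 102 and 107. The mast cell sums hold only signals under the floor and the osteoclast sums hold some, so no difference is read from either.

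Few of the listed prostate epithelial genes were measured, so the label of the cells could hardly be checked. Of 12 genes on the array that were listed for prostate epithelium, 2 were measured. These were Krt8, at 38.7 in the array labelled Ndrg-1 and 46.2 in the vector array, and Fkbp5, at 1113 and 1708. Fkbp5 made up most of the summed list signals of 1227 and 1841, so these sums say little about the other genes. The other 10, Krt18, Epcam, Cdh1, Pbsn and Hoxb13 among them, lay under the floor in both. Of 11 fibroblast and smooth muscle genes 5 were measured, led by Vim at 4344 and 5798 and Thy1 at 2141 and 1384 (sums 6818 and 7521). Acta2 read 208 in both, while Des, at 38.8 and 46.3, and Myh11, at 42.5 and 25.2, were near the floor. The other 6, Dcn, Lum, Pdgfra, Pdgfrb, Fap and Tagln, lay under the floor in both. Of the epithelial keratins and adhesion genes listed, Krt8 alone was above the floor, and only slightly.

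Neighbouring genes were read to see whether a member's ratio was shared along the chromosome. The 5 nearest measured genes on each side were taken from the RefSeq annotation of GRCr8 (7 in all for Ctsl, which lies near a chromosome end). Ctsh, on chromosome 8, had neighbours with a median log2 ratio of 0.45, 8 of 10 above 0, from Adamts7 at -0.49 to the pseudogene Syncrip-ps2 at 1.22, which shares sequence with Syncrip and may share its signal. Its nearest neighbours were Rasgrf1 at -0.10 and Morf4l1 at 0.32, and none of the 10 was at least 2-fold lower. Ctsc, on chromosome 1, had neighbours with a median of 0.08 and nearest neighbours Zfand6 at -0.22 and Rab38, a small GTPase of lysosome-related organelles, at 0.30. Prss23 alone among them differed by 2-fold, at -1.36 or lower.

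The neighbours of the other members had medians between -0.11 and 0.13. Cst3, on chromosome 3, lies near Cst7, the third measured gene on one side, at 1.03. On its other side Thbd was at 1.95 or higher. The closest measured neighbours of Cst3 were Napb (0.27) and LOC102555217 (-0.30). Ctsd was flanked by Ifitm10 (-0.81) and Syt8 (-0.25), Ctsl by Cdk20 (-0.12) and Prxl2c (-0.09), and Ctsb by Wdfy2 (-0.34) and Fdft1 (-0.74). Lgmn was flanked by Rin3 (-0.53) and Golga5 (0.54), and Ctsz by Nelfcd (-0.32) and Atp5f1e (-0.30). Ctsk and Ctss are adjacent on chromosome 2, between Setdb1 (-0.01) and Golph3l (-0.95). Further out, Ecm1 near these 2 genes (-1.28) and Lsp1 near Ctsd (1.06) also differed by 2-fold.

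**Figure D5:**
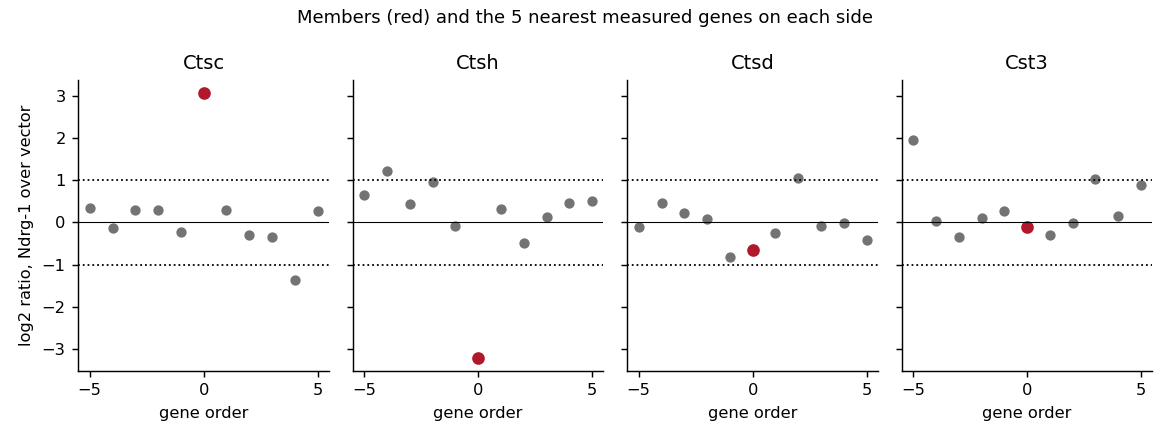
Log2 ratio (array labelled Ndrg-1 over vector array) of Ctsc, Ctsh, Ctsd and Cst3 (red, position 0) and of the 5 nearest measured genes on each side (grey) in chromosome order, with 2-fold dotted. The ratios of Ctsc (at least 3.07) and Ctsh (-3.20) were not shared by their neighbours, whose medians were 0.08 and 0.45.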

How the data were processed

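Signals were read from 1 Affymetrix array per group. The deposited intensity values were made by the authors with GCOS 1.3, per the submitters' processing notes. How probe sets were summarised and scaled is not stated there. Trimmed of 2% at each end, mean intensity was 150.0 on both arrays. Arrays have no read depth, and their number limits the precision.

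The 57 control probe sets were set apart. Of the other probe sets 20826 carried 1 gene symbol, 436 several and 9780 none; 20758 of the first matched RefSeq (GRCr8) by gene ID. Signals of the vector array were shifted to bring the median log2 ratio to 0 over probe sets with a mean signal above the median. The floor, fold and representative probe set are described with the results.

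Members and lists were chosen with earlier results of these data known. Named genes were all members, up to 4 genes per direction and list at 2-fold or otherwise the highest and lowest, the nearest genes in ratio and the nearest neighbours; other named genes were chosen after their values were seen. The calculation was tested on simulated data. Calculations used pandas 2.3.3 and numpy 2.4.6, with statsmodels 0.14.6 for lowess, in Python 3.11.15.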

Additional observations from a re-analysis of the deposited data

How the results depend on the processing

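Ratios were recomputed in 10 ways: without rescaling, after quantile normalization, with a lowess trend taken out, with the floor at the 25th or the 75th percentile, with a pseudocount of 16 in place of the floor, from the median over probe sets, without _x_at and _s_at probe sets and, added after seeing the data, scaled to the hybridisation or the poly-A spikes. With the floor at the 25th percentile 444 genes were at least 2-fold higher and 463 lower, and at the 75th percentile 23 and 34, with 0 members higher, since a floor change alters which signals count. The hybridisation spike scaling gave 732 higher and 43 lower genes, a member median of 0.38 and 0 of 11 list medians below 0, against 6 as reported. Scaled this way, Dpp7 (1.12), Atp6ap2 (1.09), Gnptab (1.05), Ifi30 (1.10), Cd68 (1.39) and Thy1 (1.17) rose past 2-fold. Tinagl1 (-0.99) fell under it. Scaled to the poly-A spikes, 240 genes were lower and 11 list medians below 0, and Neu1 reached -1.04. These scalings shift the ratios of genes above the floor in both arrays alike. No paired analysis was possible because each group is 1 array and no test was made. Signals under the floor limit Ctsk, Ctss, Ctsz and the size of the Ctsc ratio.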
